A study of Mus musculus with 7 samples.

Results

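The genes described here are 10 imprinted genes of mouse chromosome 7, namely Peg3, Usp29 and Zim1 of the proximal Peg3 domain, and Snrpn, Snurf, Ndn, Magel2, Mkrn3, Ube3a and Peg12 of the central Snrpn domain. They were chosen by name, as known members of these domains, although earlier results of these data were known at the time. They make up 10 of the 43346 genes in the deposited counts. The study quantified allele-specific expression (ASE) by total RNA-seq in growth plates, the cartilage discs in which long bones lengthen, from the proximal and distal tibia of 7 mice. All 7 were male F1 hybrids of C57BL/6J (B6) and CAST/EiJ (CAST) aged 21 d, untreated, and formed 1 group, so that the comparison lay between the B6 and the CAST allele within each mouse. Mice carry the numbers 1, 2, 3, 4, 5, 7 and 8 of the sample labels.

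Imprinted genes are expressed mainly from the copy inherited from 1 parent, which is marked by DNA methylation laid down in the germ line and kept through later cell divisions. Each domain has a differentially methylated imprinting centre, at the first exon of Peg3 and at the main Snrpn promoter, where the maternal copy carries the methylation and the paternal copy is active. Most genes of both domains are therefore known as paternally expressed, with Zim1 described as maternally expressed and Ube3a as maternally expressed in neurons only. Peg3 is known for effects on growth and maternal behaviour in mice, and loss of the paternal copy of the human region that matches the Snrpn domain causes Prader-Willi syndrome.

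Total counts per mouse ran from 14098019 to 37849667, with a median of 27603769. Of the mitochondrial counts, 99.98% to 99.99% were assigned to B6, as were 90.2% to 91.6% of the X-linked counts. Males receive both from their dam, so the B6 copy is the maternal and the CAST copy the paternal copy in these mice. All 7 mice came from 1 direction of the cross, and the effect of strain and the effect of parent of origin therefore cannot be told apart. Growth plate cartilage markers (Col2a1, Acan, Sox9, Col9a1, Matn3, Comp, Col10a1 and Ihh) summed to 55234 to 92211 CPM (counts scaled to a common library total) per mouse. Markers of adjoining tissues were present too, at 36219 to 65860 CPM for osteoblasts, 3903 to 9315 CPM for marrow and blood, and 6230 to 14073 CPM for skeletal muscle. Neuron markers summed to 9.71 to 13.7 CPM. On average Map2 had 6.09, Tubb3 1.49, Stmn2 1.34, Rbfox3 1.17, Syn1 0.911, Elavl3 0.0714 and Syt1 0.0304 CPM, while Snap25 had no counts. In such bulk tissue, fewer cells of a type and less RNA per cell cannot be told apart.

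Sequences of the start regions are shown because the imprinting centres of both domains lie at promoters. They are from RefSeq on GRCm38.p6, which had an entry for 10 of the 10 genes. Peg3 and Usp29 start head to head, at positions 6730419 and 6730583, and the 163 bases between the starts belong to neither RefSeq transcript, although GENCODE M21 extends both genes a few bases into them. They are given on the minus strand, read in the direction of Peg3, with capitals marking the 2 matches to the CCAAT box, which appears as its reverse complement.

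Peg3 and Usp29, chr7:6730420-6730582: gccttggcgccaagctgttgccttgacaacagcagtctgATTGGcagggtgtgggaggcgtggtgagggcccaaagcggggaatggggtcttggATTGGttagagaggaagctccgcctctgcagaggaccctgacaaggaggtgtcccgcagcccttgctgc

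The CCAAT box was found on either strand in 37.4% of the 32851 RefSeq promoter windows, each from 250 bases before to 50 bases after a start. The windows of Peg3 and Usp29 also held the cyclic AMP response element TGACGTCA, found in 1.79% of all windows, outside the stretch printed above. The windows of these genes overlap, so a match or a CG dinucleotide in the shared part counts in both. In the Snrpn domain, the core of the site bound by nuclear respiratory factor 1, CGCATGCG on either strand, was found in 1.87% of all windows. It occurred in 6 of the 13 windows of the 10 genes, which were the 4 Snrpn windows, the Snurf window that is the same stretch as the last of these, and the Ndn window. The 30 bases around each match are given below in the direction of the gene, with the match in capitals.

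Snrpn, chr7:60450222-60450251: gcaaacatccaCGCATGCGtgattggaagg

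Snrpn, chr7:60140285-60140314: gcaaacatccaCGCATGCGtgatgggaggg

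Snrpn, chr7:60048031-60048060: gcaaacatgcaCGCATGCGtcgttgaaggt

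Snrpn, chr7:60005150-60005179: cagccattgcctgggaCGCATGCGtaggga

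Ndn, chr7:62348243-62348272: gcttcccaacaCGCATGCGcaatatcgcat

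The first and second Snrpn windows shared 28 of 30 bases, and each shared 24 of 30 with the third. The fourth, at the start that Snurf also uses, shared between 4 and 8 bases with the other 3, and the Ndn window shared 15 with each of the first 3. In those first 3 and in Ndn the match began 63, 78, 71 and 23 bases before the start. CG dinucleotides, the sites of DNA methylation, numbered 29 in the Ube3a window, 20 in Zim1, 17 in Usp29, 15 in Mkrn3, 13 in Peg3, 12 in Peg12, 11 in Ndn and 10 in Magel2. The 4 Snrpn windows held 2, 3, 4 and 7, against a median of 7 over all windows. These matches and counts describe the letters in the windows and show neither binding nor methylation.

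The alleles were compared by edgeR's likelihood-ratio test, with calls at an FDR under 0.20, in 20020 genes. These were the genes for which every mouse had counts from B6, from CAST or from both. Over these genes 34.8% were called, 16.1% with more CAST and 18.7% with more B6 counts. Of the 10 members, 9 could be tested. Peg3, Snrpn, Ndn, Magel2, Mkrn3 and Peg12 were called higher on CAST (6 of 9), and Zim1 was called higher on B6 (1 of 9). Ube3a and Snurf were not called, and Usp29 had too few counts to be tested. The median log2 fold change of CAST over B6 was 3.29 over the 9 members and 0.01 over all tested genes. CAST counts exceeded B6 counts in all 7 mice for 5 of the 9 members, against 10.6% of all tested genes, and B6 counts exceeded CAST counts in all 7 mice for 1 of them, Zim1, against 14.0%. Zim1 entered the test through its B6 allele, as its CAST allele had no counts in mice 2, 7 and 8.

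**Figure D1:**
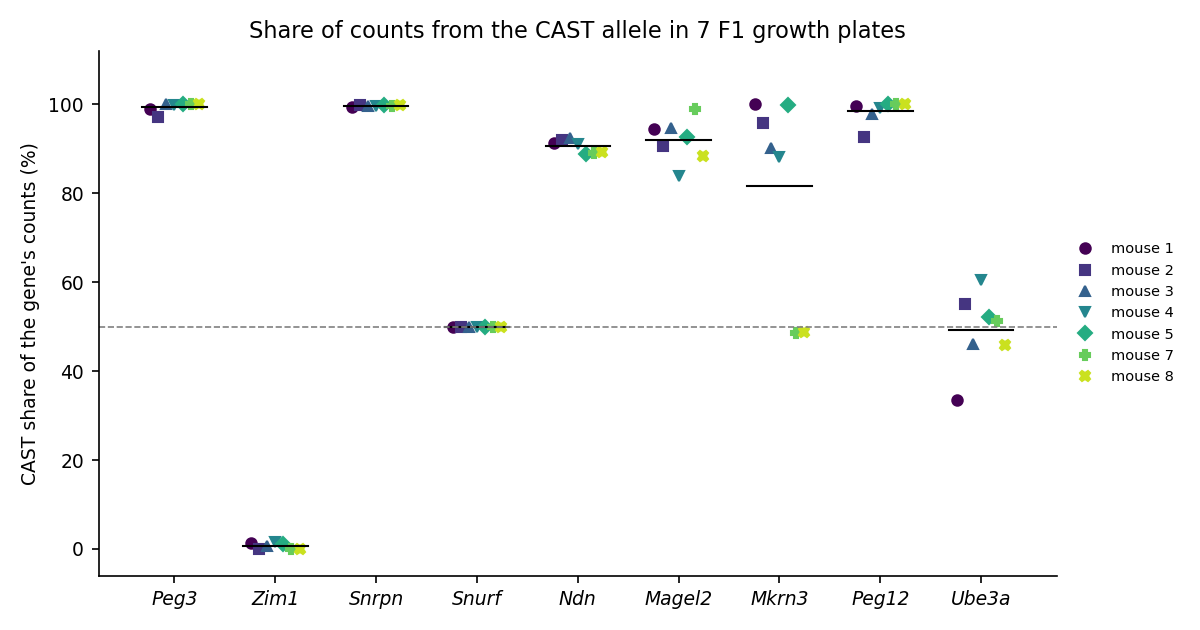
Share of each gene's counts assigned to the CAST allele (%, y axis) for the 9 tested members (x axis), with 1 symbol per mouse, a horizontal bar at the mean of the 7 mice and a dashed line at 50%. Peg3, Snrpn and Peg12 lie above 92%, Ndn between 88.9% and 92.4%, Zim1 below 2%, and Ube3a on both sides of 50%.

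Peg3 encodes a zinc finger protein and is the paternally expressed gene that names the proximal domain. It lies on the minus strand at chr7:6703892-6730431 (GRCm38, GENCODE M21; ENSMUSG00000002265). Its CAST counts were 6440, 5024, 6244, 3628, 7923, 3006 and 5253 in mice 1, 2, 3, 4, 5, 7 and 8. Its B6 counts in the same order were 75.6, 145, 3.73, 5.61, 5.31, 0.0626 and 0.852. Every mouse had far more CAST than B6 counts, and the B6 counts of mice 1 and 2 stood apart from those of the other 5. The CAST share was 97.2% in mouse 2 (95% Wilson interval 96.7% to 97.6%) and 98.8% in mouse 1 (98.6% to 99.1%), while it was above 99.8% in the others. Such intervals cover counting error at most, and may be too narrow for it, since PCR copies of a molecule are counted as separate reads. Summed over the mice, CAST counts were 159 times the B6 counts (exact binomial 95% interval 140 to 181, counting error only). This interval and those of the summed ratios below leave out the variation between mice. The log2 fold change was 7.46 (FDR 9.06e-15, edgeR likelihood-ratio test), and it was 8.69 without mouse 2. The mean log2 ratio within mice, with 0.5 added to each count, was 9.43 ± 2.74 (SD, n = 7). An exact permutation test that flips the sign of whole mice, two-sided as everywhere below, gave p = 0.0156, below which 7 mice cannot go, and 0.0633 after Benjamini-Hochberg adjustment over all tested genes. With DESeq2 the log2 fold change of Peg3 was 3.81 (adjusted p = 0.0301), and it was 7.48 in a fit in which DESeq2 did not replace outlying counts.

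Zim1, another zinc finger gene, lies next to Peg3 on the same strand at chr7:6671269-6696450 (ENSMUSG00000002266), with its start 34.0 kb from the Peg3 start. Its B6 counts in the 7 mice, in the order above, were 234, 209, 276, 111, 286, 103 and 204. Its CAST counts were 3.25, 0, 1.75, 1.87, 3.03, 0 and 0. The alleles did not overlap, and their order was the reverse of that of Peg3. The B6 share was 99.3% ± 0.701 (SD, n = 7). In the mice without CAST counts, a count of 0 allows a CAST share of up to 1.44% in mouse 2, 2.91% in mouse 7 and 1.47% in mouse 8. Summed B6 counts were 144 times the summed CAST counts (95% interval 77.1 to 297), and the log2 fold change was -7.01 (FDR 1.24e-155, edgeR likelihood-ratio test). The log2 ratio of Zim1 was lower than that of Peg3 in each mouse, by 12.4 to 20.6, with a mean difference of -16.55 ± 3.10 (SD, n = 7; exact sign-flip test, p = 0.0156). The same p remained after adjustment over the 2 differences between genes that were tested. As the ratios of Peg3 and Zim1 had opposite signs in every mouse, this p could take no other value. It adds nothing to the results of each gene alone.

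Usp29 encodes a ubiquitin-specific protease and runs in the opposite direction from the shared start region, at chr7:6730578-6967219 (ENSMUSG00000051527). It had 1 count in mice 1, 2, 3 and 5 and none in mice 4, 7 and 8. The count of mouse 1 was assigned to CAST, and those of mice 2, 3 and 5 were divided equally between the alleles, which is too few for a comparison. Its mean level was 0.0184 CPM, against 204 CPM for Peg3 from the other side of the same 163 bases. Usp29 was thus not detectable above 1 count per mouse at this depth.

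Snrpn encodes SmN, a protein of the Sm ring of splicing particles, and is transcribed from the minus strand at chr7:59982495-60140219 (ENSMUSG00000102252). Its CAST counts in the 7 mice were 202, 185, 190, 126, 222, 84.7 and 177. Its B6 counts were 1.29, 0.214, 0.840, 0.485, 0.265, 0.336 and 0.309. No mouse reached 2 B6 counts, and the CAST share was 99.7% ± 0.195 (SD, n = 7). The B6 counts in single mice were all below the floor of 3 counts, which corresponded to 1.35% to 3.53% of the gene's counts. Summed over the mice there were 3.74 B6 and 1186 CAST counts, a ratio of 317 (95% interval 115 to 1090). The log2 fold change was 8.72 (FDR 5.23e-179, edgeR likelihood-ratio test), or 8.04 from unrounded counts, since rounding sets most of the B6 counts to 0.

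Snurf is the upstream reading frame of the Snrpn transcript and is annotated as a gene of its own at chr7:59995449-60005049 (ENSMUSG00000102627). Its 2 alleles had equal counts in every mouse (tolerance 1e-06), from 0 to 4.92 per allele, and the CAST share of 50% did not vary. All 142 stretches of 75 bases in its annotated transcripts also occur in Snrpn and in Gm38393, the combined Snurf and Snrpn gene model at chr7:59974149-60005064. Of the 2081 such stretches of Snrpn, 18.9% occur in these other models. Gm38393 itself had 23.6 ± 8.05 CAST and 1.39 ± 0.950 B6 counts (SD, n = 7), with a log2 fold change of 4.12 (FDR 1.53e-26, edgeR likelihood-ratio test). When the 3 overlapping models were summed, the CAST share was 98.1% ± 0.689 (SD, n = 7) and ran from 97.0% to 98.8%. Snurf is thus a model without a 75-base stretch of its own. That comparison between models does not address why its alleles had equal counts, and how the deposited method divided its reads was not tested.

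Ndn, Magel2, Mkrn3 and Peg12 lie in a group 2206 to 2324 kb from the Snrpn start. Ndn encodes necdin, a MAGE family protein known for restraining proliferation and for promoting differentiation, at chr7:62346569-62350262 on the plus strand (ENSMUSG00000033585). Its CAST counts in the 7 mice were 878, 946, 872, 717, 1083, 466 and 883. Its B6 counts were 83.7, 82.7, 71.9, 69.8, 135, 57.7 and 105. CAST was higher in every mouse, but the B6 allele was counted in every mouse too, far above the floor of 3 counts. The B6 share was 9.43% ± 1.47 (SD, n = 7), and its range of 7.62% to 11.1% lay above the ranges of Peg3 (0.00208% to 2.80%), Snrpn (0.115% to 0.636%) and Peg12 (0.0118% to 7.35%). No 75-base stretch of Ndn occurs in another gene model, as was true of Peg3, Magel2, Mkrn3, Ube3a and Peg12. That comparison between genes does not address how reads were divided between the alleles. The summed ratio was 9.64 (95% interval 8.86 to 10.5), and the log2 fold change was 3.29 (FDR 7.84e-121, edgeR likelihood-ratio test). The ratio varied least among the called members, with a mean log2 ratio of 3.27 ± 0.248 (SD, n = 7).

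Magel2 encodes a MAGE protein that enhances the activity of a ubiquitin ligase on endosomes, and lies at chr7:62377010-62381640 (ENSMUSG00000056972). Its CAST counts in the 7 mice were 123, 155, 107, 72.1, 147, 44.5 and 114. Its B6 counts were 7.40, 16.2, 6.12, 13.9, 11.7, 0.461 and 15.1. The alleles did not overlap, and mouse 7, with the fewest total counts, was the only mouse with less than 1 B6 count. The B6 share was 8.12% ± 4.90 (SD, n = 7), and it was higher than the share of Ndn in 3 mice and lower in 4. The log2 fold change was 3.42 (FDR 3.14e-40, edgeR likelihood-ratio test).

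Mkrn3 encodes a makorin RING finger protein known as a brake on the onset of puberty, at chr7:62417593-62420139 on the minus strand (ENSMUSG00000070527). It had 7 to 18 counts per mouse. Its CAST counts were 18.0, 9.58, 13.5, 14.1, 13.0, 3.41 and 7.79, and its B6 counts were 0.00279, 0.418, 1.49, 1.89, 0.0126, 3.59 and 8.21. In mice 1, 2, 3, 4 and 5 the CAST share was at least 88.2%, while mice 7 and 8 had nearly equal counts, with CAST shares of 48.7% in both (95% Wilson intervals 19.4% to 78.9% and 27.0% to 71.0%). The log2 fold change was 2.17 (FDR 0.00201, edgeR likelihood-ratio test) and ranged from 1.85 without mouse 1 to 3.16 without mouse 8, with a largest FDR of 0.0242 among the fits without a mouse. The exact sign-flip permutation test over the 7 mice gave p = 0.0625, and Mkrn3 therefore did not pass that test at 0.05. With at least 10 counts required in every mouse, Mkrn3 was not tested.

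Peg12 (also Frat3) encodes a protein of the FRAT family, which binds glycogen synthase kinase 3 and promotes Wnt signalling. It lies at chr7:62461871-62464510 on the minus strand (ENSMUSG00000070526). Its CAST counts in the 7 mice were 151, 136, 144, 84.3, 167, 59.0 and 113. Its B6 counts were 0.582, 10.8, 3.21, 0.688, 0.0372, 0.00694 and 0.0842. The alleles did not overlap, and mouse 2 held most of the B6 counts, as it did for Peg3. The CAST share was 92.7% in mouse 2 (95% Wilson interval 87.3% to 95.9%), 97.8% in mouse 3 (94.0% to 99.2%), and at least 99.2% in the other 5. The summed ratio was 55.5 (95% interval 34.4 to 102), and the log2 fold change was 5.67 (FDR 2.49e-110, edgeR likelihood-ratio test), or 6.98 without mouse 2.

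**Figure D2:**
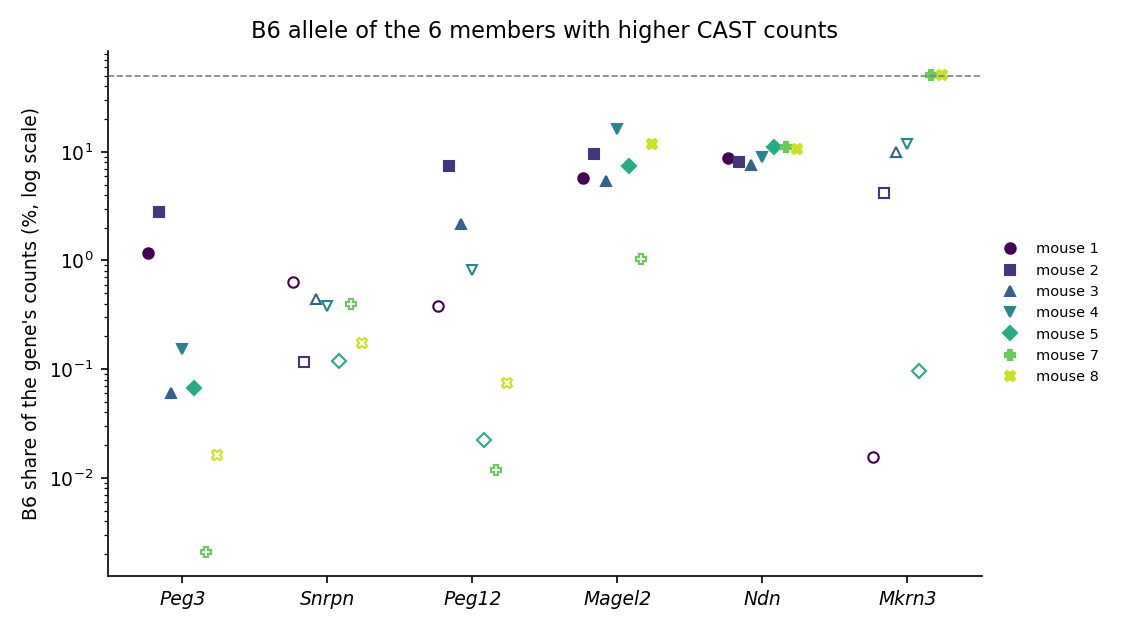
Share of counts assigned to the B6 allele (%, log scale, y axis) for the 6 members called higher on CAST (x axis), with 1 symbol per mouse, hollow where the B6 allele had fewer than 3 counts, and a dashed line at 50%. Ndn spans 7.62% to 11.1% and Snrpn 0.115% to 0.636%, while Mkrn3 spans 0.0155% to 51.3%, with mice 7 and 8 at the top.

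Among these 6 genes, the order of the B6 share was not the same in every mouse. Peg3 had a higher B6 share than Snrpn in mice 1 and 2 and a lower one in the other 5. The ranges of Peg3, Snrpn and Peg12 overlapped, and those of Ndn, Magel2 and Mkrn3 overlapped. Ndn was above Peg3, Snrpn and Peg12 in 7 of 7 mice, without overlap, and Magel2 was above the same 3 genes in 7 of 7 mice, without overlap only against Snrpn. The X-linked genes give a background for counts on an absent allele, since a male has no CAST copy of them. Of 4 X-linked MAGE genes, Maged1 had 0.762% ± 0.273 CAST counts and Maged2 had 0.0181% ± 0.0291 (SD, n = 7). Magee1 had 0.617% ± 1.45, and Mageh1 had none. The lowest B6 share of Ndn was above the highest CAST share of each of these 4 genes. Over all X-linked genes together, however, the B6 copy held 90.2% to 91.6% of the counts and the rest were assigned to the absent CAST copy. That range lay within the range of the expressed allele of Ndn, whose CAST share was 88.9% to 92.4%. Syn1, a neuron marker on the X chromosome, had 41.4% ± 14.7 (SD, n = 7) CAST counts. Its B6 counts were higher in 2 mice, and its alleles had equal counts in the others. What part of the B6 counts of Ndn came from such assignment to an absent or silent allele was not tested.

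Ube3a encodes the ubiquitin ligase E6-AP and lies at chr7:59228750-59311536 on the plus strand (ENSMUSG00000025326). Its B6 counts in the 7 mice were 544, 332, 448, 138, 403, 173 and 265. Its CAST counts were 275, 406, 384, 210, 441, 182 and 224. CAST was higher in 4 mice and B6 in 3. The CAST share ran from 33.6% in mouse 1 (95% Wilson interval 30.4% to 36.9%) to 60.4% in mouse 4 (55.1% to 65.4%). The intervals of these mice, the lowest and the highest, did not overlap. Such intervals may be too narrow, because the counts may not count fragments. The mean CAST share was 49.2% ± 8.53 (SD, n = 7), and the log2 fold change was -0.06 (FDR 0.896, edgeR likelihood-ratio test), which turned to 0.10 without mouse 1 (FDR 0.774). The mean log2 ratio was -0.05 ± 0.505 (SD, n = 7; exact sign-flip test, p = 0.797). The ratio of Snrpn exceeded that of Ube3a by 6.40 to 8.05 in each mouse, by 7.43 ± 0.672 on average (SD, n = 7; exact sign-flip test, p = 0.0156).

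Snhg14, the long host transcript of the domain's small nucleolar RNAs, runs from the Snrpn end toward Ube3a and overlaps the end of Ube3a on the other strand, at chr7:59307924-59975759. Its neuronal form is the antisense transcript of Ube3a. It had 116 ± 50.3 B6 and 138 ± 65.1 CAST counts (SD, n = 7), a CAST share of 45.1% to 60.8% and a log2 fold change of 0.25 (FDR 0.314, edgeR likelihood-ratio test). Whether reads were counted by strand is not given in the sources used here, so reads in the overlap with Ube3a cannot be told apart. Atp10a, beyond Ube3a, had a log2 fold change of 0.05 (FDR 0.794) and CAST shares of 46.3% to 53.2%. These were the 2 genes of a list of 12 other imprinted transcripts of the domains that the counts held under their GENCODE M21 names, and neither was called (median 0.15).

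Genes around the members were compared over windows reaching 1 Mb beyond the outermost members of each domain. The windows, chr7:5671269-7967219 and chr7:58228750-63464510, held 302 other annotated genes, of which 19 were tested. Of these, 4 were called higher on CAST and 1 on B6, or 26.3%, against 34.8% of all tested genes. The 19 included genes that could hardly be called. Gm7367 had almost no counts, Otud7a had 3.14 on average, and the alleles of Gm18190 had equal counts in every mouse. In the Peg3 window the called genes were zinc finger genes with few counts. They were Zfp78 (log2 fold change 1.19), Zfp773 (0.83) and Zfp28 (-0.69), at mean totals of 10, 10.5 and 83.4 counts. In the Snrpn window they were Gm38393, which shares sequence with Snrpn, and Chrna7 (1.52), a nicotinic receptor subunit with 26.4 counts on average. Clcn4, in the same window as Peg3 and at 992 counts, had a log2 fold change of 0.09 (FDR 0.560, edgeR likelihood-ratio test). No tested neighbour of Peg3 had a mean log2 ratio as far from 0 as Peg3 or Zim1.

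**Figure D3:**
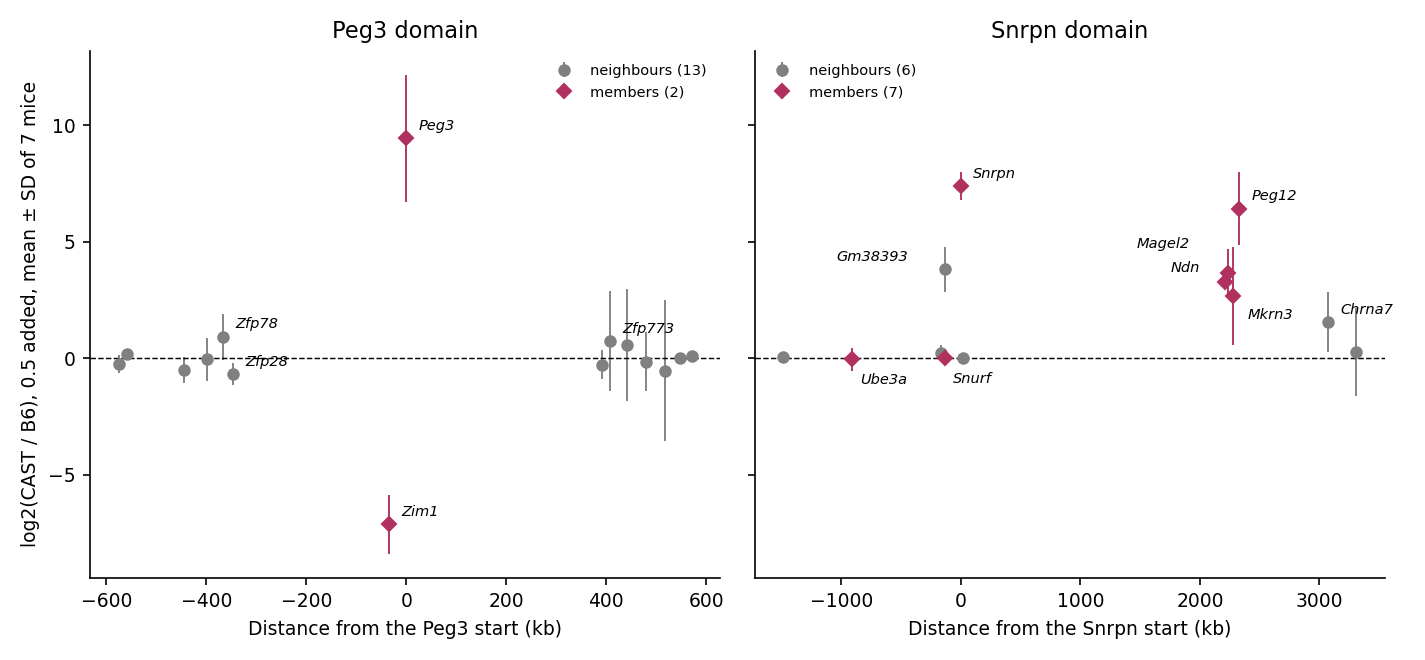
Mean log2 ratio of CAST over B6 counts with 0.5 added (y axis, bars 1 SD over 7 mice) against distance from the Peg3 start (left) or the Snrpn start (right) in kb, for members (diamonds) and other tested genes (circles). Peg3 at 9.43 and Zim1 at -7.13 lie 34.0 kb apart, and Snrpn, Ndn, Magel2, Mkrn3 and Peg12 lie above 0, while Ube3a and Snurf lie near 0.

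Levels of both alleles together were compared between genes as CPM per kb of annotated exon. Peg3 was the highest member at 15.3 ± 1.65 CPM per kb (SD, n = 7), above 88.9% of the 15577 tested protein-coding genes, whose median was 2.55. Ndn followed at 9.62 ± 0.956 CPM per kb and was above 81.9% of those genes. Snrpn had 2.99 ± 0.272 and Peg12 1.77 ± 0.176 CPM per kb. Up to this point each gene was above the next in every mouse, and Peg12 was above Ube3a (1.15 ± 0.214) in the same way. Ube3a, Magel2 (0.957 ± 0.189), Zim1 (0.950 ± 0.178) and Snurf (0.693 ± 0.545) had overlapping ranges. Mkrn3 had 0.210 ± 0.0624 CPM per kb, within the wide range of Snurf, and was above 11.9% of the genes. Exon lengths are the union over all annotated transcripts, 20626 bases for Ube3a and 13324 for Peg3, which lowers the level per kb of genes with many long forms. Over the mice, the CPM of Snrpn, Ndn, Peg12 and Peg3 varied by 9.10% to 10.7% of their means (coefficient of variation), against 18.6% for Ube3a, 18.8% for Zim1, 19.8% for Magel2 and 29.7% for Mkrn3.

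**Figure D4:**
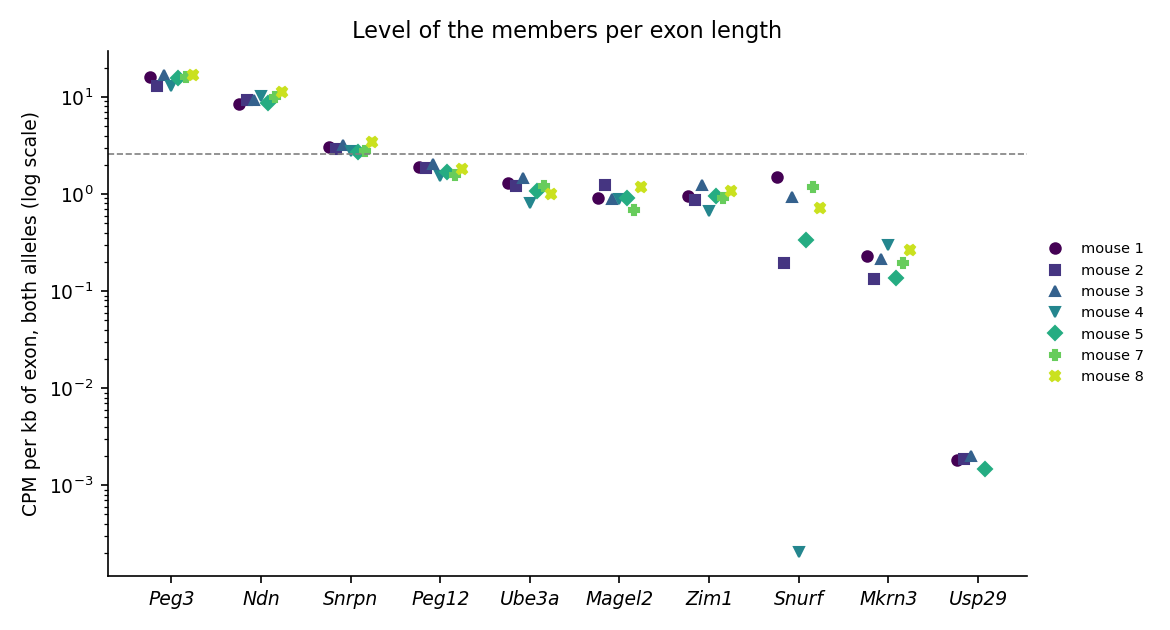
Level of each member in CPM per kb of exon, both alleles summed (log scale, y axis), with 1 symbol per mouse and a dashed line at 2.55, the median of tested protein-coding genes. Peg3 and Ndn lie above the line in every mouse, Snrpn lies just above it, the lowest point of Snurf is mouse 4, and mice without counts of Usp29 are not drawn.

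Across the 7 mice, the genes whose log2 CPM followed that of Peg3 most closely were Vav3 (Pearson r = 0.997, Spearman rho = 0.964), Lrrfip2 (0.986, 0.964) and Hddc2 (0.980, 0.964), out of 11763 genes compared. For Ndn they were Ifitm2 (0.968, 1.00), Sdf2 (0.957, 0.929) and Zfp787 (0.955, 0.929). Without the 2 mice farthest from the median, these r values were 0.960, 0.835 and 0.856 for Peg3, and 0.937, 0.926 and 0.905 for Ndn. Among the members themselves, Peg3 and Zim1 had r = 0.839 and rho = 0.893, while Peg3 and Ndn had r = -0.01 and rho = 0.00. Without the 2 mice farthest from the median of Peg3, r was 0.927 with Zim1 and 0.454 with Ndn, and without the 2 farthest from the median of Ndn, r between Peg3 and Ndn was -0.350, so the value for this last pair rested on which mice were included. These values describe 7 libraries that also differ in depth and in their content of adjoining tissue, and are given without a test.

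Other genes of the members' pathways gave the following counts, to be read against the 34.8% of all tested genes that were called. Of the other 7 genes of the Sm ring, of which SmN is a variant, all were tested. The alleles of Snrpg had equal counts in every mouse, so it could hardly be called. Snrpe (log2 fold change 0.34, FDR 0.0235) and Snrpd1 (0.26, FDR 0.185) were called higher on CAST and Snrpd3 (-0.67, FDR 5.66e-07) higher on B6. Their median was -0.04, and none came near the 8.72 of Snrpn. Of 12 MAGE proteins and partners of MAGE, makorin and ubiquitin ligases, the 4 called higher on B6 were the X-linked Maged1, Maged2, Magee1 and Mageh1, and Mkrn2 was called higher on CAST (0.20, FDR 0.135). The median of this list was 0.03. Among 12 genes that keep imprints through cell division or act on them, 11 were tested. Uhrf1, which guides maintenance methylation (-0.28, FDR 0.196), and Smchd1, a silencing factor (-0.21, FDR 0.132), were called higher on B6, and the KRAB zinc finger genes Zfp57 and Zfp445 and the methyltransferase Dnmt1 were not called. The median of this list was -0.03. All FDR values here are from edgeR's likelihood-ratio test over all tested genes.

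Imprinted genes of other domains served for comparison. Of 9 tested paternally expressed genes elsewhere, 8 were called higher on CAST and none on B6, with a median log2 fold change of 3.80. Among those called, the transcription factor gene Plagl1 had 6.26, the growth factor gene Igf2 3.06, Mest 3.86, Impact 1.81 and Sgce 11.42. Zrsr1 had the lowest value of those called, 1.18. Nnat, at 162 counts on average, was not called. Its CAST share was 49.8% ± 0.474 (SD, n = 7), but its alleles had equal counts in all mice but 1, which had more B6 counts. How its reads were divided between the alleles was not tested. Of 10 tested maternally expressed genes elsewhere, 9 were called higher on B6 and none on CAST, with a median of -5.27. H19 had -9.93, Meg3 -8.84, the receptor gene Igf2r -5.40, the cell cycle inhibitor gene Cdkn1c -5.14 and the adaptor gene Grb10 -3.63. The 6 members called higher on CAST, from 2.17 to 8.72, lay within the range of the paternally expressed genes elsewhere, and Zim1 at -7.01 lay within that of the maternally expressed genes. A B6 share like that of Ndn was seen in Igf2 also, where the CAST share was 89.3% ± 1.16 (SD, n = 7), against 90.6% ± 1.47 for Ndn. Of the tissue markers listed above, 1 of 8 was called higher on CAST for the growth plate, and 2 on CAST and 1 on B6 of 6 tested for neurons. For osteoblasts and for marrow and blood 1 of 6 was called in each direction, and for skeletal muscle none of 6, against 34.8% of all tested genes called in either direction. The alleles of S100a8, a marrow and blood marker, had equal counts in every mouse.

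**Figure D5:**
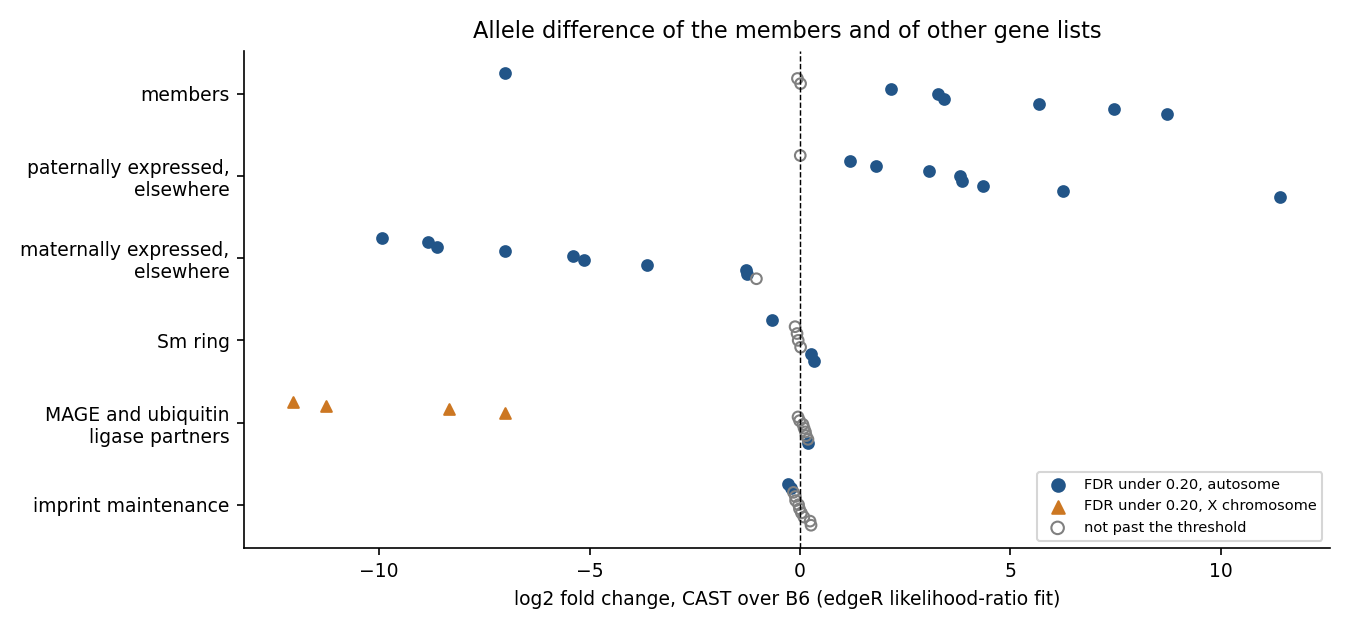
Log2 fold change of CAST over B6 (x axis, edgeR fit) for the tested genes of 6 lists (y axis), with filled circles for autosomal genes at an FDR under 0.20, triangles for X-linked ones and open circles for genes not past the threshold. Members and paternally expressed genes elsewhere lie mostly to the right, maternally expressed genes and Zim1 to the left, and genes of the Sm ring within 0.67 of 0.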

How the data were processed

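Growth plates of 7 male F1 mice were measured by RNA-seq. The authors used Bowtie to align reads, with up to 3 mismatches, against B6 (mm10) and CAST transcripts together, and the deposited values are estimated counts per gene and allele from EMASE, not normalized. Versions are not given in the sources used here. Reads that fit several genes or both alleles are divided, so a count need not be whole. The labels give an average of 6700000 read pairs per sample, and read ends and lanes were quantified separately. How ends and lanes were combined is not stated in the sources used here. Totals of 14098019 to 37849667 therefore may not count fragments, and counting intervals may be too narrow.

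After rounding, the alleles were compared in edgeR 4.0.16 under R 4.3.3 (limma 3.58.1), with TMM, estimateDisp, glmFit and glmLRT. The 20020 genes tested had, in each mouse, an allele with a count above 0 (tolerance 1e-06), following the study's filter, for which no tolerance is stated. FDR values were adjusted over all of them. Log2 ratios within mice used a pseudocount of 0.5 and an exact sign-flip permutation test. A share's interval is Wilson's at 95%, and the floor is 3 counts. Both alleles of a mouse come from the same library, so the mouse pairs them. Deviations from the allele means correlated within mice at 0.184 on average (lowest 0.0470) and between mice at -0.0310. The study's methods name no block. The main fit has none, and the fit with the mouse as a block is an alternative, as are the quasi-likelihood test, DESeq2 1.42.0, other scalings, filters and thresholds, and each mouse left out. The DESeq2 fit without outlier replacement was added after the data were seen. The fit was tested on simulated data.

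Coordinates and names are from GENCODE M21, which held 42462 of the 43346 identifiers, and promoters from RefSeq tables. All 10 members are named. From the lists (Sm ring, MAGE and ubiquitin ligase partners, imprint maintenance, other imprinted genes, tissue markers), called genes with at least 10 counts were named, at most the 4 with the highest counts and the 2 most extreme in each direction, and genes like Peg3 or Ndn were the 3 with the highest r among genes with 100 counts. Clcn4, Syn1, Snhg14, Atp10a, Zfp57, Zfp445 and Dnmt1 were named after their values were seen. So were Nnat, Zrsr1, Gm7367, Gm18190, Otud7a, Snrpg, S100a8 and the single neuron markers. The members and lists were chosen with earlier results of these data known.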

Additional observations from a re-analysis of the deposited data

How the results depend on the processing

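Under every alternative, 6 members were called higher on CAST and 1 on B6, except that 5 were called higher on CAST when at least 10 counts were required in every mouse, which left Mkrn3 and Snurf out of the test. These counts did not change with any mouse left out. The neighbours called fell from 5 to 2 under that filter, in which fewer genes were tested, and were 4 to 6 with a mouse left out. A replicate block for the mouse, which pairs its alleles, gave 7 called neighbours in both tests and a log2 fold change of 9.66 for Peg3, 3.02 for Mkrn3 and 6.51 for Peg12 in the likelihood-ratio test, and it changed no call of a member. Ube3a changed sign without replicate 1. With a mouse left out it ranged from -0.14 to 0.10 in the fit and from -0.16 to 0.10 as a mean log2 ratio. Snurf was 0.01 in the main fit and 0.00 with 1 library size per mouse. As its alleles had equal counts, its main value came only from the separate library sizes of the alleles. The cause of the other changes was not tested. Peg3 ranged from 3.81 with DESeq2 to 9.66 over the other settings. Mean log2 ratios within mice also depended on the pseudocount, which was set to 0.1 and to 1 as alternatives. Zim1 minus Peg3 then ran from -18.0 to -15.7 and Snrpn minus Ube3a from 6.82 to 8.25. The ratio of Peg12 ran from 5.83 to 7.46, while that of Ndn stayed at 3.26 to 3.28. No set of values among the 17 examined held a mouse past Dixon's limit of 0.568, where 0.85 would be expected by chance. Precision was limited by depth for Mkrn3 at 7 to 18 counts per mouse, for Usp29 and Snurf, and for the silent alleles of Snrpn, Zim1 and Peg12, which lay mostly below 3 counts. Without a reciprocal cross, none of the allele differences can be divided into strain and parent of origin.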
